A study of Zea mays with 56 samples.

Results

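This account concerns genes of the regular maize chromosomes that are expressed without B chromosomes and whose transcript level climbs as B chromosomes are added. It covers 204 of the 41064 genes in the deposited gene table. They carry identifiers of the regular, or A, chromosomes (40306 genes) and average 1 FPKM or more in control plants, where FPKM is a read count divided by transcript length and library size. Their FPKM also had a Spearman rank correlation of 0.65 or more with B copy number over the 24 plants that carry B chromosomes. Genes on chromosome 4 at 15 to 25 Mb, chromosome 3 at 150 to 170 Mb and chromosome 7 at 170 to 180 Mb were left out by rule, which removed 4 genes that passed otherwise. Of the 18369 A-chromosome genes that met the level in controls outside those windows, the 204 are called the rising A genes below. The climb among carriers was what chose them, so it is described and not tested.

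B chromosomes are dispensable chromosomes that some maize plants carry beside the regular set. The maize B is kept in populations by a drive: its copies fail to separate at the second pollen mitosis, and the sperm that receives them tends to fertilise the egg. Plants therefore come with different B numbers. A change in the dose of one chromosome is known in maize to alter transcript levels of genes on others.

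The study profiled leaves of 28 greenhouse plants of the inbred line W22, aged 45 days, whose B number had been scored by fluorescence in situ hybridization. Controls carried 0 copies (n = 4). Carriers had 1, 2, 3 or 4 copies (n = 4 each), 5 copies (n = 2), 6 copies (n = 3) or 7 copies (n = 3), and groups are named 1B to 7B by copy number. Plants within a group are given as biological replicates by the labels. All controls come from one series of plant codes and all carriers from another, so B presence and that difference cannot be told apart. No gene names were paired with the identifiers, and 0 of them matched the genes that RefSeq lists for the maize assembly Zm-B73-REFERENCE-NAM-5.0, so neither gene functions nor the leaf identity of the samples could be checked by markers. A whole leaf is a mixture of cell types, in which fewer cells of a type and less RNA per cell cannot be told apart.

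Between 20483 and 21144 genes reached 0.5 FPKM in a library. Spike-in reads, from synthetic RNAs added to each sample, totalled 427551 to 1634328 per library. The relative depth of the libraries, read from the single-read steps of low values, ranged from 0.635 to 1.215. The authors had scaled the FPKM between libraries, and the choice of genes rests on that scaling. When the values were scaled by the spike-ins instead, by factors of 0.588 to 1.475, the same rule chose 16 genes, 15 of them among the 204. The plant 1B replicate 1 stood apart. The rising A genes lay a median of 0.19 log2 units below its group there, against -0.05 to 0.10 in the other 23 carriers. It was the lowest of all 24 carriers in 79 of the 204 genes, where the rule rewards low values. Without it the rule chose 159 genes, 145 of them among the 204.

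The rising A genes spanned the levels of leaf transcripts. Their median in controls was 10.5 FPKM, with quartiles of 4.87 and 21.9 FPKM, against a median of 9.30 FPKM over all A-chromosome genes at 1 FPKM or more. The lowest stood at 1.03 FPKM and the highest at 6646.4 FPKM. Of the 204 genes, 97 were under 10 FPKM and 8 were at 100 FPKM or more. The control mean can hide zeros: 2 of the genes were listed at 0 in at least 1 control and 4 had a control median under 1 FPKM. The median locus span was 3854 bp, against 4243 bp over the same background.

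Most climbs were modest. The ratio of the 7B mean to the 1B mean had a median of 1.34 and quartiles of 1.22 and 1.60, and it ran from 1.07 to 8.11. Only 24 of the 204 genes reached a 2-fold difference. The median slope was 0.084 log2 units per B copy. Genes of the B chromosome itself offer a scale: 94 B-specific genes, listed under 0.1 FPKM in controls and at 1 FPKM or more in carriers, had a median 7B to 1B ratio of 6.33. The 33 A genes under 0.1 FPKM in controls, at 1 FPKM or more in carriers and with a rank correlation of at least 0.65 had a median ratio of 7.27. The 140 A genes at 1 FPKM or more in controls with a rank correlation of -0.65 or less had a median ratio of 0.754. With limma, 172 of the 204 genes had a slope past the threshold, against 1.51% of the background. With spike-in scaling 20 of them did, and the median slope of the 204 genes was 0.086. These counts repeat the choice of the genes and support nothing.

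The rank correlation was near the limit for most of the genes. It was under 0.7 for 118 of them, whose median 7B to 1B ratio was 1.28, and 0.85 or more for 10. The genes just inside the limit had a rank correlation of 0.65, and those just outside had 0.6496 and 0.6469. The lowest control means inside were 1.03 and 1.06 FPKM, and the nearest outside was 0.892 FPKM.

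The 10 steadiest genes, with a rank correlation of 0.85 or more, lay on 7 chromosomes. They gained 0.934 to 7.08 FPKM per B copy and had 7B to 1B ratios of 2.01 to 5.93. For B presence, 9 of them were called higher and 1 lower. The next genes described come from this set and were chosen after their values were seen.

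The gene with the highest rank correlation, Zm00004b015179 (chromosome 5, 213266403 to 213268059 in the authors' coordinates, as for all genes here), had a rank correlation of 0.976. It read 1.059, 1.012, 1.275 and 1.010 FPKM in controls. In 1B it read 0.918, 1.41, 1.227 and 2.27 FPKM, and in 2B 3.26, 2.43, 2.57 and 2.97 FPKM. In 3B the plants read 3.79, 3.69, 3.78 and 3.67 FPKM, and in 4B 6.29, 5.96, 5.90 and 5.93 FPKM. The 1B plants overlapped the controls, and from 1B to 2B, from 2B to 3B and from 3B to 4B each group lay wholly above the one before. The pair of 5B plants read 7.036 and 6.94 FPKM, the 6B plants 6.60, 6.04 and 8.054 FPKM, and the 7B plants 8.65, 8.54 and 8.72 FPKM. A straight line through the carriers gained 1.18 FPKM per copy and met 0 copies at 0.476 FPKM, below the control mean of 1.089 ± 0.126 FPKM (SD, n = 4). On the log2 scale its quadratic term was -0.063 ± 0.013 (SE), which did not pass the threshold (limma adjusted p = 0.0629) but did with a pseudocount of 0.1 or without 1B replicate 4.

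The second steadiest gene, Zm00004b021565 (chromosome 4, 89124127 to 89129092), had a rank correlation of 0.974. Its controls read 2.002, 0.996, 1.86 and 2.68 FPKM. The 1B plants read 5.69, 3.75, 3.16 and 4.45 FPKM, all above the highest control. Group means were 6.20 ± 1.049 FPKM in 2B (SD), 7.97 ± 1.42 in 3B and 10.82 ± 2.052 in 4B, each over 4 plants. They reached 13.7 ± 0.434 FPKM with 5 copies (n = 2), 15.3 ± 1.75 with 6 (n = 3) and 20.6 ± 3.11 with 7 (n = 3). The line through the carriers gained 2.58 FPKM per copy and met 0 copies at 0.920 FPKM, beside a control mean of 1.89 ± 0.693 FPKM. All 24 carriers exceeded every control, and the 7B mean was 4.83 times the 1B mean.

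**Figure D1:**
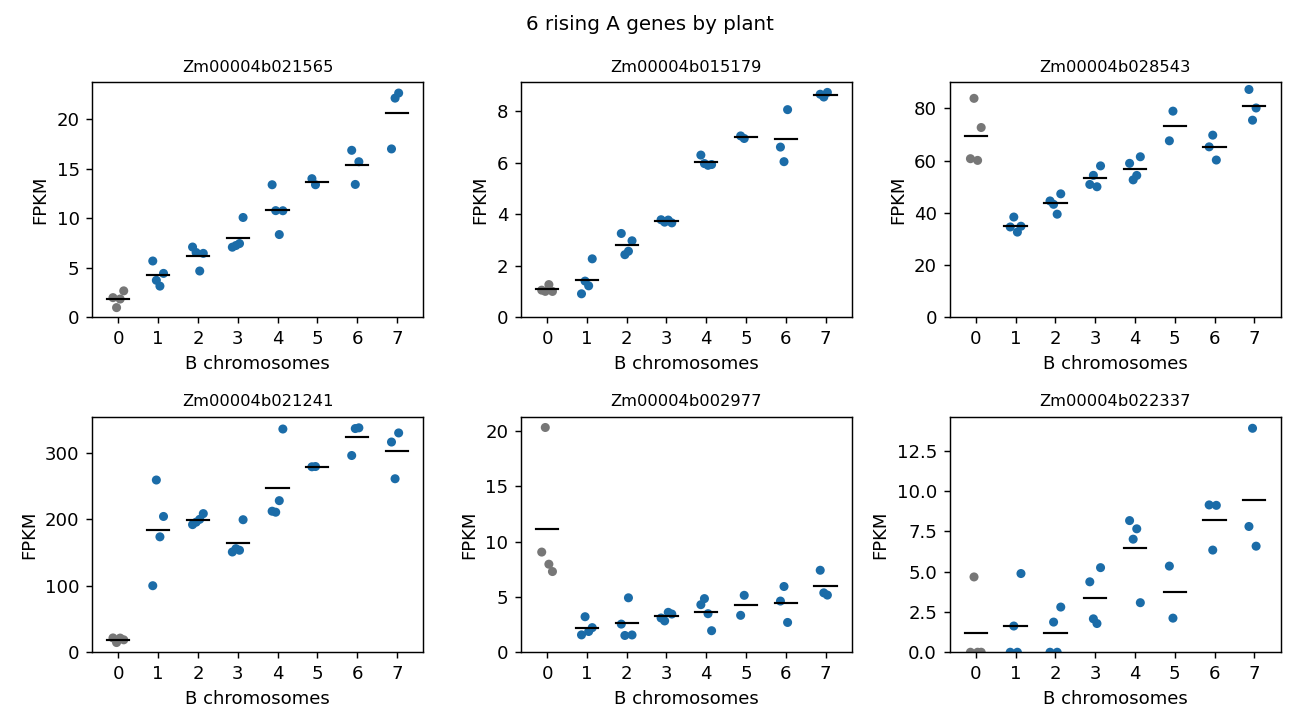
FPKM of 6 rising A genes (vertical axes, linear, each from 0) in each of the 28 plants, against B number (horizontal axes); points are plants, grey for controls and blue for carriers, and bars are group means. the mean of Zm00004b021565 climbs in every step, that of Zm00004b015179 in all but the step from 5B (6.99 FPKM) to 6B (6.90 FPKM), Zm00004b028543 starts in 1B below its controls and ends above them, Zm00004b021241 lies at 100.2 FPKM or more in every carrier against 21.5 or less in controls, Zm00004b002977 stays at 7.42 FPKM or less in carriers, and Zm00004b022337 is listed at 0 in several plants.

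The rule did not use the difference between carriers and controls. It did use the same plants, through a floor on the control mean and the order of the carriers by copy number. The comparison is thus not fully independent of the choice of the genes. B presence was taken as the mean of the 7 carrier groups, each weighted equally, minus the control mean on log2(FPKM + 0.5). The rising A genes were mostly higher in carriers. With limma, 135 of the 204 were called higher and 19 lower, and 50 did not pass the adjusted threshold of 0.05. All 204 passed the filter on low values. Among the 18365 tested A-chromosome genes at 1 FPKM or more in controls, 24.2% were called higher and 28.5% lower, and over all 24515 genes tested 23.2% were higher and 23.7% lower. The shares among the rising A genes were 66.2% higher and 9.31% lower. Their median difference was 0.455 log2 units, against -0.049 over the background. With plants rather than groups weighted equally, 132 were higher and 22 lower. When 1B replicate 1 was left out of both the choice of genes and the test, 109 of 159 genes were higher and 17 lower.

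The direction was mirrored in the A genes that fell with B number, of which 18 of 140 were higher and 76 lower in carriers by the same test. Those genes were chosen on the same carriers with the opposite sign, so the mirror is a description. The medians of both sets were also opposite in controls, at 0.113 and -0.113 in replicate 3 and -0.088 and 0.129 in replicate 4. The contrast between carriers and controls in single plants gave a like picture to the test. In 55 of the rising A genes (27.0%) every carrier exceeded every control, against 10.3% of the background. In 6 of them (2.94%) every carrier lay below every control, against 8.93% of the background. Under spike-in scaling, which raised all genes in carriers by 0.28 log2 units, 135 of the rising A genes were called higher and 6 lower, beside 26.4% and 8.45% of the background.

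**Figure D2:**
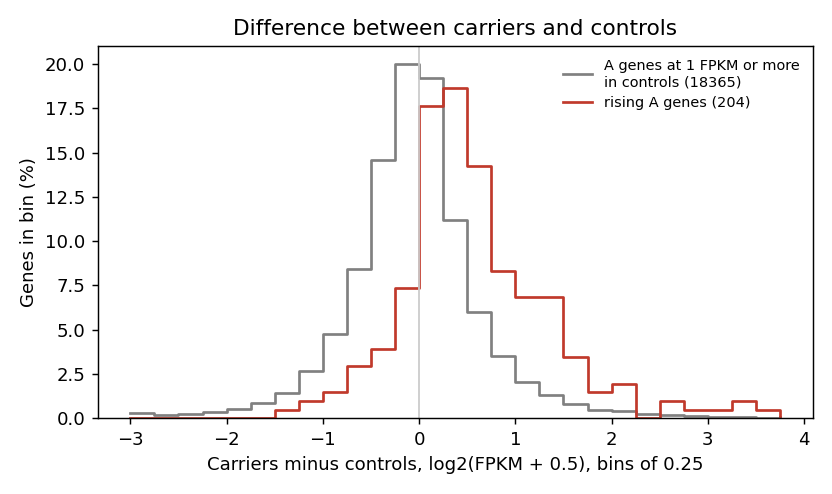
Share of genes (vertical axis, %) by their difference between carriers and controls on the log2(FPKM + 0.5) scale (horizontal axis, bins of 0.25), for the 204 rising A genes (red) and the 18365 tested A-chromosome genes at 1 FPKM or more in controls (grey). The red curve lies to the right of the grey one, with medians of 0.455 and -0.049.

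The rising A genes were divided by that call to describe their courses. Their differences for B presence form 1 continuous distribution, and the order of the classes relative to control follows from the division. The 135 called higher already stood a median of 0.46 log2 units above control in 1B and reached 0.95 in 7B. In 132 of them the 1B mean lay above the control mean, and in all 135 the 7B mean did. Their differences for B presence ran from 0.17 to 3.60 log2 units, with 48 above 1. The 50 that were not called started a median of 0.17 below control in 1B (-0.17) and ended above it in 7B (0.26), and 34 of them crossed their control mean between 1B and 7B. The 19 called lower were at -0.95 in 1B and returned towards control, to -0.29 in 7B, where the mean of 2 of them exceeded it. The median slopes of these 3 classes were 0.082, 0.084 and 0.103 log2 units per copy. These slopes are a description, since the rank correlation over the same plants chose the genes.

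**Figure D3:**
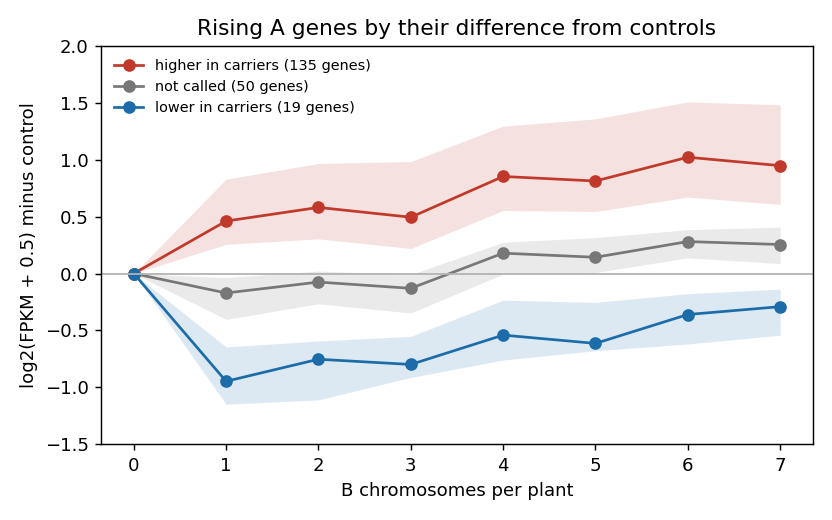
Difference from control on the log2(FPKM + 0.5) scale (vertical axis) against B number (horizontal axis) for rising A genes called higher in carriers (red, 135 genes), not called (grey, 50) or called lower (blue, 19); points are medians over genes and bands span the quartiles. All 3 lines climb from 1B to 7B, from 0.46 to 0.95, from -0.17 to 0.26 and from -0.95 to -0.29.

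The largest rise for B presence was in Zm00004b021241 (chromosome 4, 58737894 to 58742706). Controls read 21.5, 14.6, 21.3 and 18.7 FPKM. The 1B plants read 100.2, 259, 174 and 204.5 FPKM and the 7B plants 317, 261 and 330.3 FPKM. A single B chromosome thus went with 185 ± 66.4 FPKM (SD, n = 4) against 19.04 ± 3.23 FPKM in controls (n = 4), and further copies with at most 324 ± 23.8 FPKM, in 6B (n = 3). The difference was 3.60 ± 0.15 log2 units (SE; limma adjusted p = 5.1e-16), and every carrier exceeded every control.

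The next, Zm00004b032683 (chromosome 9, 80729620 to 80731213), had a low base. It read 1.25, 0.588, 1.019 and 1.45 FPKM in controls. In 1B it read 6.48, 11.8, 12.5 and 13.9 FPKM, and over all carriers it averaged 14.8 ± 3.69 FPKM (SD, n = 24). The difference was 3.30 ± 0.15 log2 units (SE; limma adjusted p = 3.5e-15), with all 24 carriers above all controls. In both genes the step from 0 to 1 copy was larger than the climb from 1 to 7 copies, whose ratios were 1.64 and 1.57.

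The largest fall was in Zm00004b002977 (chromosome 1, 183790461 to 183792045). Its controls read 9.06, 20.3, 7.97 and 7.30 FPKM, so that 1 plant held much of the control mean of 11.2 ± 6.16 FPKM (SD, n = 4). The 1B plants read 1.57, 3.21, 1.88 and 2.23 FPKM and the 7B plants 7.42, 5.37 and 5.17 FPKM. The 1B plants lay below all controls, and 1 plant of 7B lay above the lowest control. The difference for B presence was -1.42 ± 0.25 log2 units (SE; limma adjusted p = 3.5e-05), and it ranged from -1.58 to -1.10 when single plants were left out.

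Zm00004b024046 (chromosome 4, 239573774 to 239576690) fell from 5.55 ± 0.879 FPKM in controls (SD, n = 4) to 1.53 ± 0.247 FPKM in 1B (n = 4). Its controls read 4.47, 6.45, 5.23 and 6.04 FPKM, and the 7B plants read 3.34, 2.08 and 3.19 FPKM. All carriers lay below all controls, and 7B regained part of the distance, at 2.87 ± 0.686 FPKM (n = 3). The difference was -1.15 ± 0.16 log2 units (SE; limma adjusted p = 1.5e-06).

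Zm00004b028543 (chromosome 6, 16847277 to 16872144) was singled out after its values were seen, as the gene of highest rank correlation (0.955) among those below control in 1B and above it in 7B. Controls read 60.7, 83.8, 60.07 and 72.6 FPKM and 1B plants 34.6, 38.4, 32.6 and 34.9 FPKM, with no overlap. Means then rose to 43.7 ± 3.24 FPKM in 2B, 53.3 ± 3.64 in 3B and 56.8 ± 4.078 in 4B (SD, n = 4 each). With 5 copies the mean was 73.2 ± 8.015 (n = 2), with 6 copies 65.1 ± 4.76 and with 7 copies 80.9 ± 5.92 (n = 3 each). Against control the log2 difference was -0.96 ± 0.09 in 1B and 0.23 ± 0.10 in 7B (SE), and that in 7B did not pass the threshold. The gene was picked on the direction of both, so they are descriptions. The presence call for this gene, -0.29 ± 0.07 (limma adjusted p = 0.0022), is an average over groups on both sides of the control mean.

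The most abundant of the rising A genes was Zm00004b036722 (chromosome 7, 150647431 to 150648220). It read 7070, 5662, 7089 and 6764 FPKM in controls and 7573, 8391, 8201 and 9300 FPKM in 1B. The 3B plants, at 6830 to 7670 FPKM, overlapped the controls, and the 4B plants, at 8917 to 9863 FPKM, did not. The 6B mean was 12120 ± 1257 FPKM (SD, n = 3), above the 7B mean of 9587 ± 574 FPKM (n = 3). Its difference for B presence was 0.43 ± 0.12 log2 units (SE; limma adjusted p = 0.0040).

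Second in abundance was Zm00004b019534 (chromosome 3, 223974956 to 223983061). Its controls read 814, 746, 926 and 1093 FPKM and its 1B plants 1977, 2855, 2287 and 2293 FPKM. The highest group mean was 3300 ± 477 FPKM in 6B, and 7B stood at 2847 ± 459 FPKM (SD, n = 3 each). All carriers exceeded all controls, and the difference was 1.56 ± 0.10 log2 units (SE; limma adjusted p = 5.4e-12).

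The steepest slopes belonged to 2 very short loci. Zm00004b007283 (chromosome 2, 44802920 to 44803184, 265 bp) had a slope of 0.56 ± 0.09 log2 units per copy (SE). Its 3B plants read 4.23, 6.01, 1.72 and 2.54 FPKM and its 4B plants 19.0, 22.6, 8.89 and 13.4 FPKM, with no overlap. The 7B plants, at 9.43, 40.3 and 30.2 FPKM, were widely spread. Zm00004b022337 (chromosome 4, 164843782 to 164844043, 262 bp) had a slope of 0.53 ± 0.10. It was listed at 0 in 3 controls and at 4.67 FPKM in the other, which alone brought it over the level required, and at 0 in a pair of 1B and a pair of 2B plants. Its 7B plants read 7.80, 13.9 and 6.58 FPKM.

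The climb was not even. The median over the 204 genes of the difference from control, taken in each plant, was -0.088 to 0.113 log2 units in controls. It was 0.247 ± 0.130 in 1B, 0.317 ± 0.039 in 2B and 0.233 ± 0.049 in 3B (mean ± SD over plants, n = 4 each). With 4 copies it was 0.571 ± 0.049 (n = 4), with 5 copies 0.564 ± 0.054 (n = 2), and with 6 and 7 copies 0.690 ± 0.028 and 0.662 ± 0.019 (n = 3 each). Plants with 1 to 3 copies lay between 0.064 and 0.370 and plants with 4 to 7 copies between 0.525 and 0.722, with no overlap. That plants of high B number lie above plants of low B number is fixed by the rule. The rule also favours a rise at 4B. A gene with a single step and no other change would have a rank correlation of 0.88 with the step at 4B, 0.83 at 3B or 5B, 0.76 at 6B, 0.65 at 2B and 0.58 at 7B. The place of the break is therefore a description as well. The median step of single genes was 0.07 from 1B to 2B, -0.042 to 3B, 0.305 to 4B, -0.01 to 5B, 0.123 to 6B and -0.027 to 7B.

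**Figure D4:**
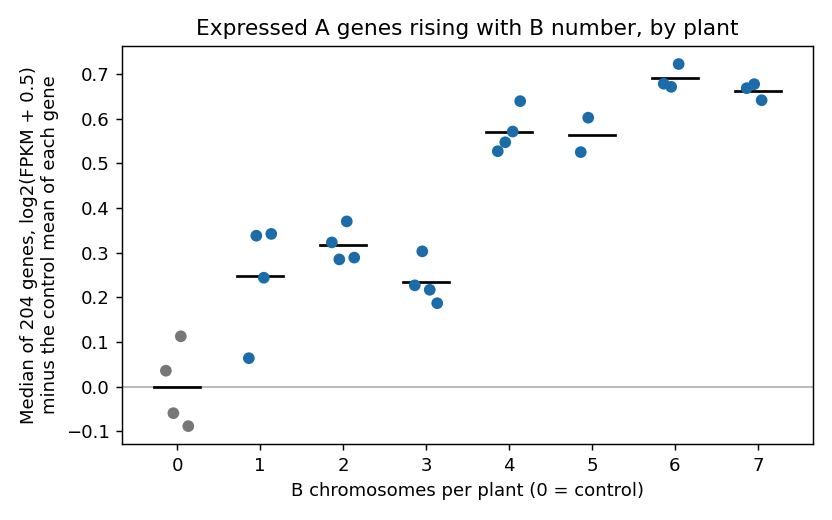
Median over the 204 rising A genes of log2(FPKM + 0.5) minus each gene's control mean (vertical axis) in each plant, against B number (horizontal axis); grey points are controls, blue points carriers and bars group means. Plants with 1 to 3 copies lie between 0.064 and 0.370 and plants with 4 to 7 copies between 0.525 and 0.722.

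In 131 of the 204 genes the largest of the 6 steps between neighbouring group means ended at 4B, and a median of 70.4% of the log2 rise from 1B to 7B lay between 3B and 4B. That is 64.2% of the genes, where the largest step up ended at 4B in 21.5% of the background and at each other copy number in 12.2% to 17.5%. The largest step ended at 6B in 28 genes, at 3B in 16, at 5B in 13, at 2B in 10 and at 7B in 6. Only 4 genes, Zm00004b021565 and Zm00004b002977 among them, rose in all 6 steps, while 33 rose in 5, 90 in 4, 66 in 3 and 11 in 2. In 9 genes every plant with 4 or more copies exceeded every plant with 3 or fewer, a separation that the rule itself favours. Its share over the background was not counted, so it describes these genes only.

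The A genes that fell with B number, chosen on the same carriers, also moved most between 3B and 4B. Their median difference from control was -0.061, -0.079 and -0.088 in 1B, 2B and 3B, then -0.369, -0.349, -0.447 and -0.444 in 4B to 7B. The B-specific genes climbed in every step, from 1.81 in 1B through 2.47, 2.87, 3.40, 3.67 and 3.75 to 4.03 in 7B. Their median step from 3B to 4B, 0.512, was larger than that from 2B to 3B, 0.411, and smaller than that from 1B to 2B, 0.794. The A genes silent in controls also climbed in every step, from 1.21 in 1B through 1.75, 2.26, 2.63, 2.71 and 2.96 to 3.42 in 7B. The median over all A-chromosome genes at 1 FPKM or more in controls stayed between -0.032 and -0.042 in every carrier group, but its flatness covers steps in both directions: from 3B to 4B the background genes had quartiles of -0.164 and 0.163, against -0.115 and 0.114 from 1B to 2B. The difference in shape between these groups of genes was not tested.

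**Figure D5:**
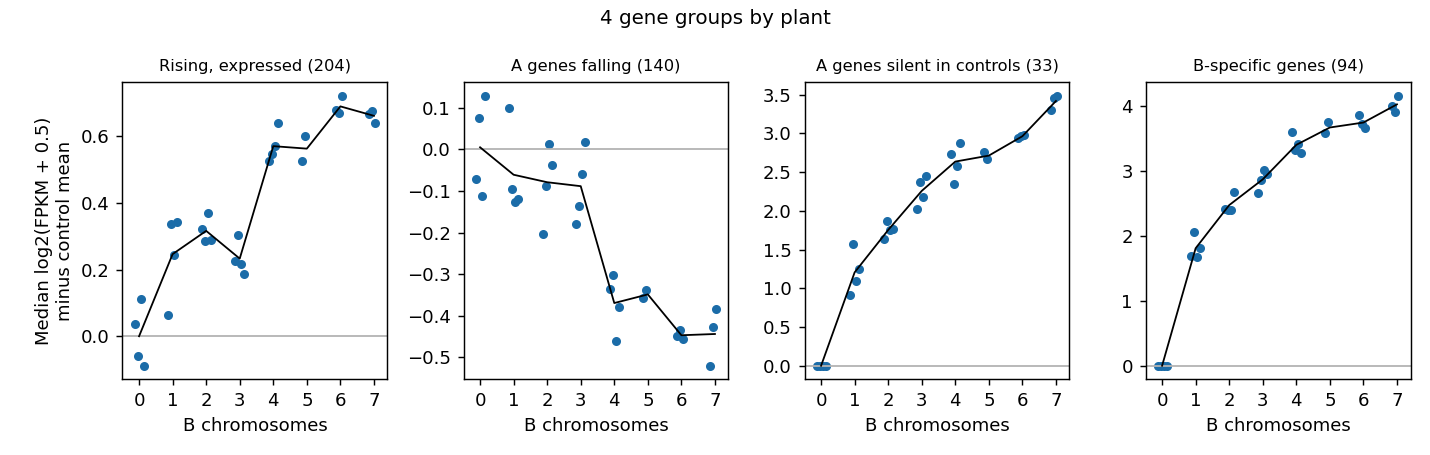
Median difference from control on the log2(FPKM + 0.5) scale (vertical axes, with different ranges) in each plant against B number (horizontal axes) for the rising A genes, the A genes that fell, the A genes silent in controls and the B-specific genes; points are plants and lines join group means. The first pair of panels breaks between 3B and 4B (0.233 to 0.571, and -0.088 to -0.369), and the other pair climbs in each step.

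Neighbouring copy numbers were set against each other with limma over all 24515 genes, a comparison added after the break had been seen. From 3B to 4B, 33 genes were called in either direction (0.135%), 9 of them rising A genes. From 1B to 2B, 41 genes were called (0.167%), 1 of them a rising A gene. From 2B to 3B there were 3 (0.0122%), from 4B to 5B 1 (0.00408%), from 5B to 6B 1 (0.00408%) and from 6B to 7B 0 (0%). None of these were rising A genes. Because carriers chose the genes, the 9 are a description. Genes with an unadjusted p under 0.05 numbered 3483 from 3B to 4B, against 1449, 1599, 733, 1064 and 1106 in the other steps in order of copy number. Steps that involve 5B, 6B or 7B rest on fewer plants, so only the first 2 of these have the same group sizes as 3B to 4B. Of the 18365 background A genes, 2935 had such a p from 3B to 4B and 448 to 1190 in the other steps. Among the 204 rising A genes 116 had it from 3B to 4B, a count that the choice of the genes raises. The contrast between 3B and 4B was thus not particular to the rising A genes.

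Library depth moved with the break. The relative depth had a median of 0.905 (0.635 to 1.136) in the 12 plants with 1 to 3 copies and 1.054 (0.763 to 1.172) in the 12 with 4 to 7 copies. The number of genes at 0.5 FPKM or more was 20483 to 20886 in the former and 20707 to 21144 in the latter. In controls the depth was 0.680 to 1.215 and the number of genes 20607 to 21044. Single plants of different copy number ran both ways. The plant 4B replicate 2 had a depth of 0.763 and a median of the rising A genes of 0.547, and 2B replicate 3 had a depth of 1.136 and a median of 0.370. In contrast, 1B replicate 1 had a depth of 0.748 and a median of 0.064, and 4B replicate 3 a depth of 1.164 and a median of 0.571. Within controls, depths of 1.215 and 1.144 went with medians of 0.036 and 0.113, and depths of 0.763 and 0.680 with -0.059 and -0.088. Within 1B, depths of 0.748, 0.769, 1.095 and 1.095 went with medians of 0.064, 0.244, 0.338 and 0.342. In 2B and 6B the deepest plant also had the highest median, and in 3B, 4B, 5B and 7B the deepest plant did not. The part of depth in the break was not tested.

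Curvature was asked of every gene as the quadratic term among carriers. It is orthogonal to the linear slope, but not thereby independent of the rank correlation that chose the genes. None of the 204 rising A genes was called with limma, while 6 had an unadjusted p under 0.05. So had 513 of the 18313 background A genes tested and 862 of all 24019 genes. Of all 24019 genes tested, 0.0458% were called, 11 genes, of which 8 were B-specific. The quadratic term was negative in 126 of the rising A genes and positive in 78, with a median of -0.003. Among the background A genes it was negative in 9027 and positive in 9286. A quadratic term describes a bend and responds little to a single step in the middle of the range.

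Every carrier group was compared with the 4 controls as well. The choice of the genes raises the counts at high copy numbers and lowers them at low ones, and the groups share their controls, so the counts are descriptions. With limma, 82 rising A genes were higher and 33 lower in 1B, against 19.2% and 20.9% of the background. In 2B 100 were higher and 24 lower (18.3% and 19.6%), and in 3B 89 and 28 (17.9% and 18.9%). The 4B plants had 138 higher and 11 lower (20.9% and 23.3%), and the 5B plants 122 and 9 (16.3% and 17.1%). There were 149 higher and 7 lower in 6B (20.5% and 22.8%), and 149 and 5 in 7B (19.2% and 20.9%). In 1B, where the rule favours low values, the share called higher was 40.2% and the share called lower 16.2%. In the authors' deposited table for 1B, 69 of 199 rising A genes were significantly higher and 25 lower, against 16.4% of the background higher and 16.3% lower. In the authors' deposited table for 4B it was 114 and 9 of 203 (17.5% and 18.7%), and in that for 7B 126 and 5 of 203 (15.8% and 17%).

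How far the genes moved together from plant to plant within groups was described for the rising A genes only. No background value was computed, so whether their correlation is weak or strong for leaf genes is not known. After group means were removed, the 20706 pairs of rising A genes had a median correlation of 0.11 over the 24 carriers, with quartiles of -0.11 and 0.32. Without 1B replicate 1 the median was 0.05.

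The rising A genes were spread over all 10 chromosomes. Chromosome 1 held 35 of them, chromosome 3 held 28, chromosome 5 held 26, chromosomes 2 and 4 held 23 each, and the others 11 to 19. As a share of the background genes on a chromosome they made up from 0.909% on chromosome 9 to 1.46% on chromosome 3. They fell in 127 of the 216 windows of 10 Mb that hold background genes. No window held more than 5, the number reached on chromosome 5 at 210 to 220 Mb, among 226 background genes, and on chromosome 2 at 0 to 10 Mb, among 253.

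Next to each other in the order of background genes lay 4 pairs of rising A genes. One pair on chromosome 1 is listed at the same locus, 2996311 to 3010892, with control means of 8.16 and 3.26 FPKM. Without strand information, how well the reads of these genes were separated is not known. A pair on chromosome 2 lies 135 bp apart, a pair on chromosome 9 1979 bp apart, and a pair on chromosome 3 658274 bp apart.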

How the data were processed

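Leaf RNA-seq libraries of 28 plants were analysed. Genes were deposited by the authors as FPKM, which they had scaled between libraries: each library's median ratio to the genes' geometric means was 1.009 to 1.013. Spike-ins were deposited as raw read counts, and coverage limits the precision of low genes. The authors' deposited comparisons, laid out as by Cuffdiff per the file headers, hold FPKM, log2 fold changes and q-values. Tools named in the submitters' processing notes are, without their roles, Cuffdiff, edgeR, Bowtie2, TopHat2 and cutadapt 1.16. Genome build, strand setting and handling of multi-mapping reads are not given in the sources used here. Small RNA and transposable element tables were not used here.

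Genes that reached 0.5 FPKM in 2 or more libraries were tested with limma 3.58.1 (R 4.3.3, mean-variance trend) on log2(FPKM + 0.5) in 1 fit of 8 groups, with Benjamini-Hochberg adjustment over all genes tested and a threshold of 0.05. Fold changes on this scale understate changes of low genes. Slope and curvature were fitted to the 24 carriers. Spike-in scaling used FPKM times relative depth over spike-in reads. Relative depth came from 3127 genes listed at 0 in 10 to 20 libraries. Scripts were tested on simulated data. The rising genes, the comparison groups and the tests were chosen with earlier results of these data known. For the silent A genes a minimum of 1 FPKM in carriers was added, and they and the falling genes leave out the same windows. Genes are named by rule: for B presence the 2 largest rises and falls among called genes (direction shared by all carrier groups, mean over plants at least 1 FPKM), the 2 steepest slopes and the 2 highest means over 28 plants, with 3 more chosen after their values were seen. No gene lists were run. Alternatives were the pseudocount, the low-value filter, the scaling, a replicate block, the trend, the weights and leaving out each plant.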

Additional observations from a re-analysis of the deposited data

Results flagged for a closer look

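In 7 of the 60 groups of 4 plants examined, for the 11 genes described and for the median of the 204, 1 plant lay far from the other 3 by Dixon's ratio at its 95% limit, where chance gives about 1 in 20 groups. Zm00004b021241 read 200 FPKM in 3B replicate 4, with the next plant at 156, and 336 FPKM in 4B replicate 4, with the next at 228. Zm00004b002977 read 20.3 FPKM in Control replicate 2, against 9.06 in the next. Zm00004b022337 read 4.67 FPKM in the same control, with the other 3 listed at 0. Zm00004b024046 read 2.53 FPKM in 4B replicate 3, against 2.103. Zm00004b015179 read 6.29 FPKM in 4B replicate 1, against 5.96, and Zm00004b021565 read 10.1 FPKM in 3B replicate 4, against 7.45.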

How the results depend on the processing

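The direction of the B presence result held under every alternative run. Apart from the run that also left 1B replicate 1 out of the choice, these runs tested the genes chosen under the authors' scaling. The genes that the rule chose under spike-in scaling were not tested as a set of their own. The number of rising A genes called higher was 122 to 137 under the other settings and 124 to 141 with single plants left out. The number called lower was 6 with spike-in scaling and 14 to 21 with single plants left out. Spike-in scaling also gave 69 genes called against control in 2B (124 otherwise), 60 in 3B (117) and 93 in 6B (156). It chose 16 genes by the rule, Pearson's r on log2 values chose 132, and leaving out single plants chose 159 to 277. Curvature gave 1 called gene, Zm00004b015179, with a pseudocount of 0.1 and without 1B replicate 4, and 0 to 1 with single plants left out. The causes were not tested. With single plants left out, the counts called against control were 101 to 122 in 1B, 109 to 127 in 2B, 102 to 123 in 3B, 137 to 152 in 4B, 96 to 137 in 5B, 141 to 159 in 6B and 142 to 156 in 7B, and the median slope was 0.081 to 0.091. Replicate numbers did not pair the plants: same-numbered plants had a median correlation of 0.0022 over 87 pairs, and others of -0.000731 over 254. With a replicate block, 134 genes were higher and 19 lower, curvature called 0, and 113, 124, 116, 148, 129, 155 and 153 genes were called in 1B to 7B. How far depth limits genes listed at 0 in some plants was not tested.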
